A study of Mus musculus with 32 samples.

Results

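A set of 38 genes that encode the synaptic vesicle and the machinery of transmitter release was followed through mouse cortical neuron cultures left untreated or exposed to 1 of 3 short RNAs. The genes were named in a list, and all 38 were found by gene symbol among the 49671 genes of the deposited count table. The rule names the genes and uses no measured value. The list holds 3 synapsins, 5 vesicle membrane proteins, 7 members of the synaptotagmin group (6 synaptotagmins and Doc2b), 4 SNARE proteins, 5 SNARE regulators and recycling factors, 9 active zone and priming proteins, 3 endocytosis proteins and 2 vesicular glutamate transporters.

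The cultures came from wild-type C57BL/6 mice and were grown in serum-free neuronal medium. They were left without addition, or were exposed for 6 h or 5 d to Mut.oligo, to miR-92a-1-5p or to miR-124-5p. The 32 libraries fall into 8 groups of 4 biological replicates, with no other genotype or agent in any group. The 2 microRNAs were added to the medium as synthetic single-stranded oligoribonucleotides, and the question of the study was what such extracellular RNAs do to neurons. Mut.oligo carried a mutated sequence of the microRNA let-7b and served as the control oligoribonucleotide. The sequence of mouse miR-92a-1-5p is taken from RefSeq (GRCm38.p6, chr14:115044437-115044459, plus strand), and it is shown with its seed, bases 2 to 8 from the 5′ end, in capitals because that is the stretch through which a microRNA pairs with messenger RNAs.
miR-92a-1-5p: aGGUUGGGauuugucgcaaugcu

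At a presynaptic terminal, transmitter is packed into vesicles by a transporter, the vesicles are held and docked by synapsins and active zone proteins, and fusion is driven when the vesicle SNARE protein zippers with its partners on the plasma membrane. Many synaptotagmins sense calcium, complexins clamp and promote fusion, NSF takes the spent SNARE complexes apart, and dynamin and synaptojanin retrieve the membrane by endocytosis. In cortical neurons in culture these genes are expressed as axons grow and synapses form. The proteins of 4 of the genes were stained elsewhere in the study, synaptophysin (Syp) in mouse brain sections and synapsin (Syn1 and Syn2) and VGLUT1 (Slc17a7) in human neurons derived from stem cells, not in the cultures sequenced here, and these 4 genes are given library by library.

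Values are counts per 1000000 counted reads of the library (CPM), and a level compared between genes is divided by the length of the gene's exons (CPM per kilobase). The libraries held 24514090 to 73626029 counts, so that 3 counts, the limit a count of 0 allows, were worth 0.0407 to 0.122 CPM, which covers counting error only. A gene was called when its edgeR quasi-likelihood test had a Benjamini-Hochberg adjusted p under 0.05 over all genes tested and its log2 fold change was above 0.5 in size, a fold of about 1.41. All 38 genes passed the filter on low counts in every fit. Pan-neuronal markers summed to 6680 to 7268 CPM in the untreated 6 h libraries and 5181 to 7106 CPM in those at 5 d (medians 7179 and 6137 CPM). Within that list Tubb3 was at 2323 ± 99.7 (SD, n = 4) and 1212 ± 387 CPM, a larger step than that of the sum. Calls within the list went both ways, as given below. Microglial markers summed to at most 16.86 CPM at 6 h and 20.99 CPM at 5 d in untreated libraries, and 7 endothelial and mural markers to 7.51 to 14.7 CPM and 8.51 to 20.9 CPM. Astrocyte and radial glia markers were present, at 846 to 1429 CPM in sum at 6 h and 2520 to 4068 CPM at 5 d. One library stood apart for several of the 38 genes: miR-124-5p 5 d replicate 1 was far below its group for Pclo, Unc13a, Rims1 and Stxbp5, with the lowest share of mitochondrial counts of all libraries (0.996%, against 1.42 to 1.78% in the other libraries of its group). Leaving it out brought no call in any comparison between exposures.

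The 6 h and the 5 d libraries came from different experiment batches as the labels give them, so the time of exposure, the age of the culture and the experiment batch cannot be told apart in any comparison of 5 d with 6 h. Within a time point the batches are shared in part: 4 batches held both an untreated and a miR-92a-1-5p library at 6 h and 2 did at 5 d, 2 and 2 held an untreated and a miR-124-5p library, and 2 and 3 an untreated and a Mut.oligo library.

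In untreated cultures the genes of the release machinery were more abundant at 5 d than at 6 h. Of the 38, 16 rose, led by the vesicle proteins Sv2b (4.10-fold), Slc17a7 (3.43-fold), Syn2 (3.16-fold) and Syp (3.07-fold) and the calcium sensor Doc2b (3.25-fold), 1 fell (Cplx1, complexin 1), and 21 were not called. Among all 20425 genes tested 19.1% were called higher and 14.3% lower, against 42.1% and 2.63% of the 38. The median log2 fold change of the 38 was 0.41, and that of all genes was 0.037. With no minimum fold, 25 had an adjusted p under 0.05 and were higher and 2 were lower (all genes 27.8% and 26.9%). In 25 of the 38 every 5 d library lay above every 6 h library, and in 2 every 5 d library lay below, where all genes gave 23.6% and 23.3%. Summed over the 38, the level was 7247 to 7510 CPM in the untreated 6 h libraries and 9653 to 10545 CPM in the untreated 5 d libraries.

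Other cell markers moved between the same libraries. Of 8 astrocyte and radial glia markers 7 were called higher at 5 d (median log2 fold change 2.06), with Gfap at 17.5 ± 13.4 and 233 ± 204 CPM. The 5 proliferation markers were called lower (median -1.61). Of 10 pan-neuronal markers 2 were called higher and 3 lower (all genes 19.1% and 14.3%). In RNA from whole cultures, a change in the number of cells of a type and a change in RNA per cell cannot be told apart, and the part of these shifts in the values of the 38 genes was not tested.

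**Figure D1:**
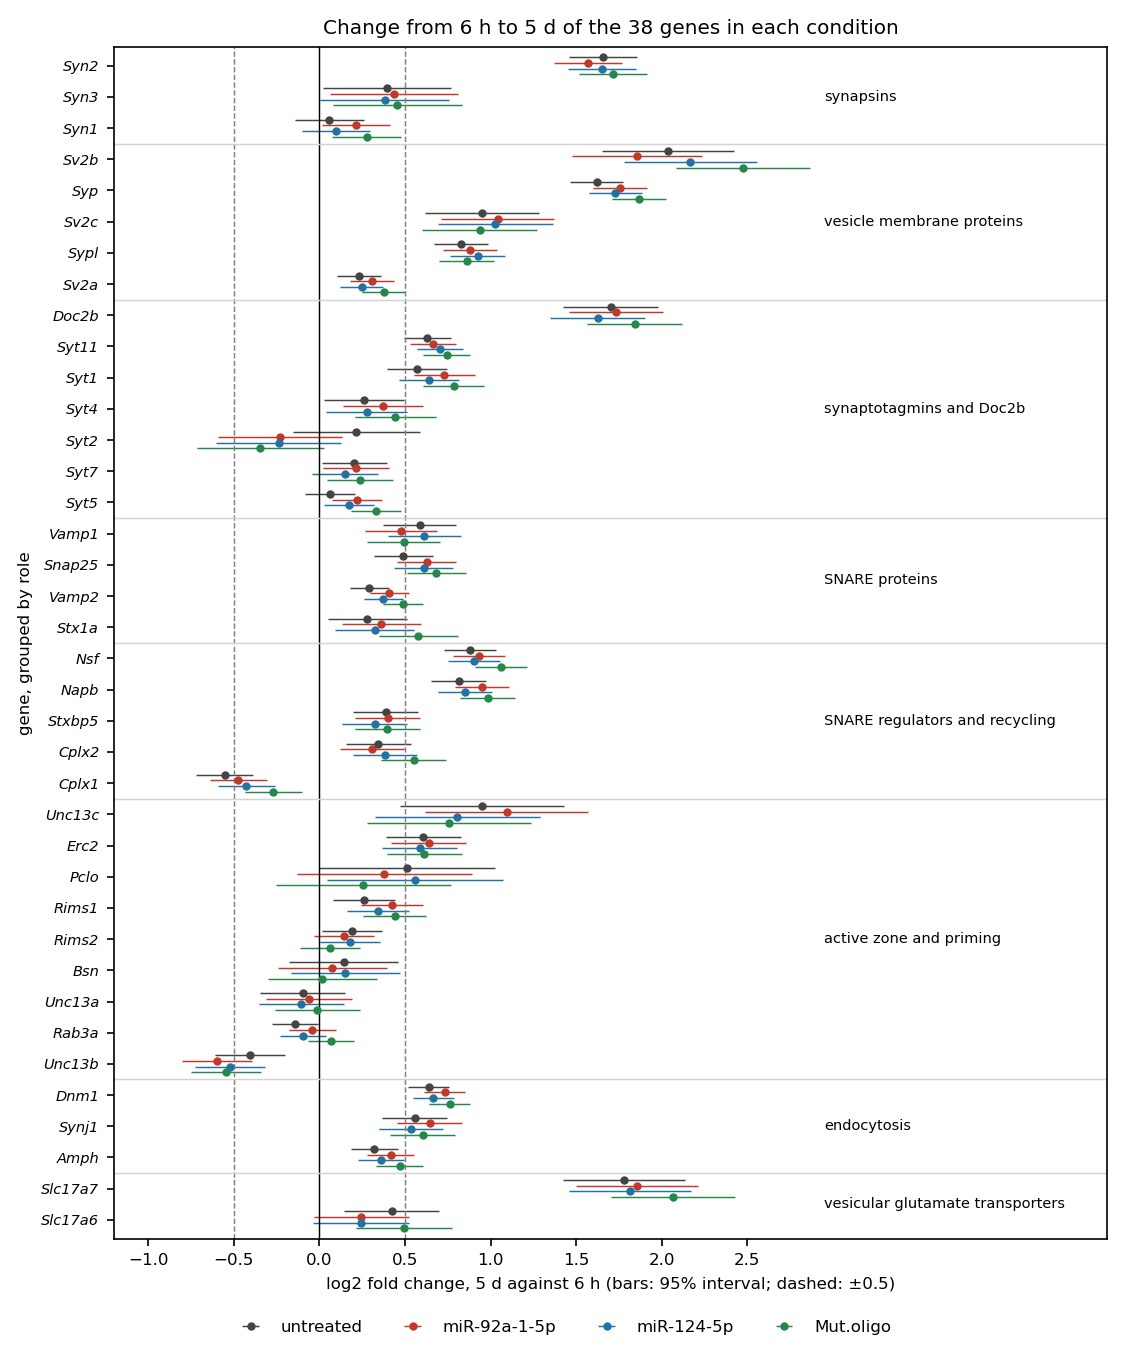
Log2 fold change from 6 h to 5 d (x axis) of each of the 38 genes (y axis, grouped by role), in a colour for each of the 4 conditions; points are estimates, bars 95% intervals, dashed lines ±0.5. The same 5 genes, Sv2b, Slc17a7, Doc2b, Syn2 and Syp, lie above 1.5 in all 4 conditions. Cplx1, Unc13b and, by little, Unc13a lie below 0 in all 4.

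The synapsins, which tether vesicles to one another and to actin, differed in their calls. Syn2 (chr6:115134902-115282006, plus strand, GRCm38) was at 85.5, 93.1, 105 and 96.3 CPM at 6 h and 330.1, 309.9, 283 and 285 CPM at 5 d in untreated cultures. No library at 5 d came near those at 6 h, and the log2 fold change was 1.66 ± 0.097 (SE), adjusted p = 1.15e-14. Syn1 (chrX:20860511-20921004, minus strand) was at 309, 340.1, 329 and 317 CPM at 6 h and 336, 377, 298 and 343 CPM at 5 d. The 2 sets of libraries overlapped, and Syn1 was not called (0.058 ± 0.098 (SE), adjusted p = 0.641, 95% interval -0.14 to 0.26), an interval that leaves out a rise of the size of Syn2. Syn3, the least abundant synapsin by exon length (4.17 ± 0.444 CPM per kilobase at 6 h, SD, n = 4), had a log2 fold change of 0.40 ± 0.18 (SE), adjusted p = 0.0682 and was not called. It crossed the threshold when either untreated 6 h replicate 3 or untreated 5 d replicate 3 was left out (0.51 and 0.52). Per kilobase Syn1 stood at 98.0 ± 4.17 and Syn2 at 13.5 ± 1.15 CPM at 6 h, and at 103 ± 9.82 and 42.9 ± 3.18 at 5 d.

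Of the 5 vesicle membrane proteins 4 were called higher (median log2 fold change of the 5, 0.95). Syp, synaptophysin, a major membrane protein of the vesicle and the usual marker of terminals, was at 182, 199.7, 205 and 193 CPM at 6 h and 664, 574, 609 and 569.8 CPM at 5 d. The 5 d libraries stood far above those at 6 h, and the log2 fold change was 1.62 ± 0.076 (SE), adjusted p = 4.96e-17, the smallest p of the 38. Among the 38 its level per kilobase moved from rank 13 (37.4 ± 1.96 CPM) to rank 6 (116 ± 8.30 CPM). Sv2b, a glycoprotein of the SV2 family that acts in vesicle priming, was at 42.7, 63.0, 56.5 and 37.6 CPM at 6 h and 219, 233, 163 and 206 CPM at 5 d. The groups were far apart, and its log2 fold change of 2.04 ± 0.19 (SE), adjusted p = 2.37e-10 was the highest among the 38. Of its relatives, Sv2c was called higher (24.2, 36.3, 22.6 and 33.5 CPM at 6 h and 53.4, 41.9, 83.0 and 50.3 CPM at 5 d; 0.95 ± 0.16 (SE), adjusted p = 1.20e-05), while Sv2a, by far the most abundant of the 3 at 65.9 ± 3.95 CPM per kilobase at 6 h, moved by 0.23 ± 0.062 (SE), adjusted p = 0.00214, below the minimum fold. Sypl, a synaptophysin-like protein that is not confined to neurons, was at 19.6, 18.9, 16.9 and 19.7 CPM at 6 h and 36.2, 28.2, 40.5 and 30.3 CPM at 5 d and rose (0.83 ± 0.078 (SE), adjusted p = 3.58e-10).

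Both vesicular glutamate transporters load glutamate into vesicles, Slc17a7 (VGLUT1) being the form of mature cortical neurons and Slc17a6 (VGLUT2) that of subcortical and young neurons. Slc17a7 (chr7:45163949-45176142, plus strand) was at 31.7, 30.3, 46.0 and 27.9 CPM at 6 h and 145, 123.9, 91.4 and 109 CPM at 5 d. The groups did not overlap, and the log2 fold change was 1.78 ± 0.17 (SE), adjusted p = 8.09e-10. Slc17a6 was at 40.1, 44.0, 47.6 and 46.3 CPM at 6 h and 49.5, 71.6, 61.6 and 57.4 CPM at 5 d. Its groups did not overlap either, but its log2 fold change of 0.42 ± 0.14 (SE), adjusted p = 0.00941 stayed under the minimum fold. It passed that minimum (0.55) only without untreated 5 d replicate 1, among the untreated libraries left out in turn. The ratio of Slc17a7 to Slc17a6, per kilobase, was 0.791, 0.690, 0.970 and 0.603 in the untreated 6 h libraries and 2.93, 1.73, 1.49 and 1.91 in those at 5 d. The mean went from 0.763 to 2.01 without overlap (exact permutation test over 4 against 4 libraries, two-sided, p = 0.0286, the smallest this design allows; 0.0416 after Benjamini-Hochberg adjustment over the 16 ratio tests made, for 4 pairs in 4 conditions). So the transporter that led per length was Slc17a6 in all 4 untreated libraries at 6 h and Slc17a7 in all 4 at 5 d.

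**Figure D2:**
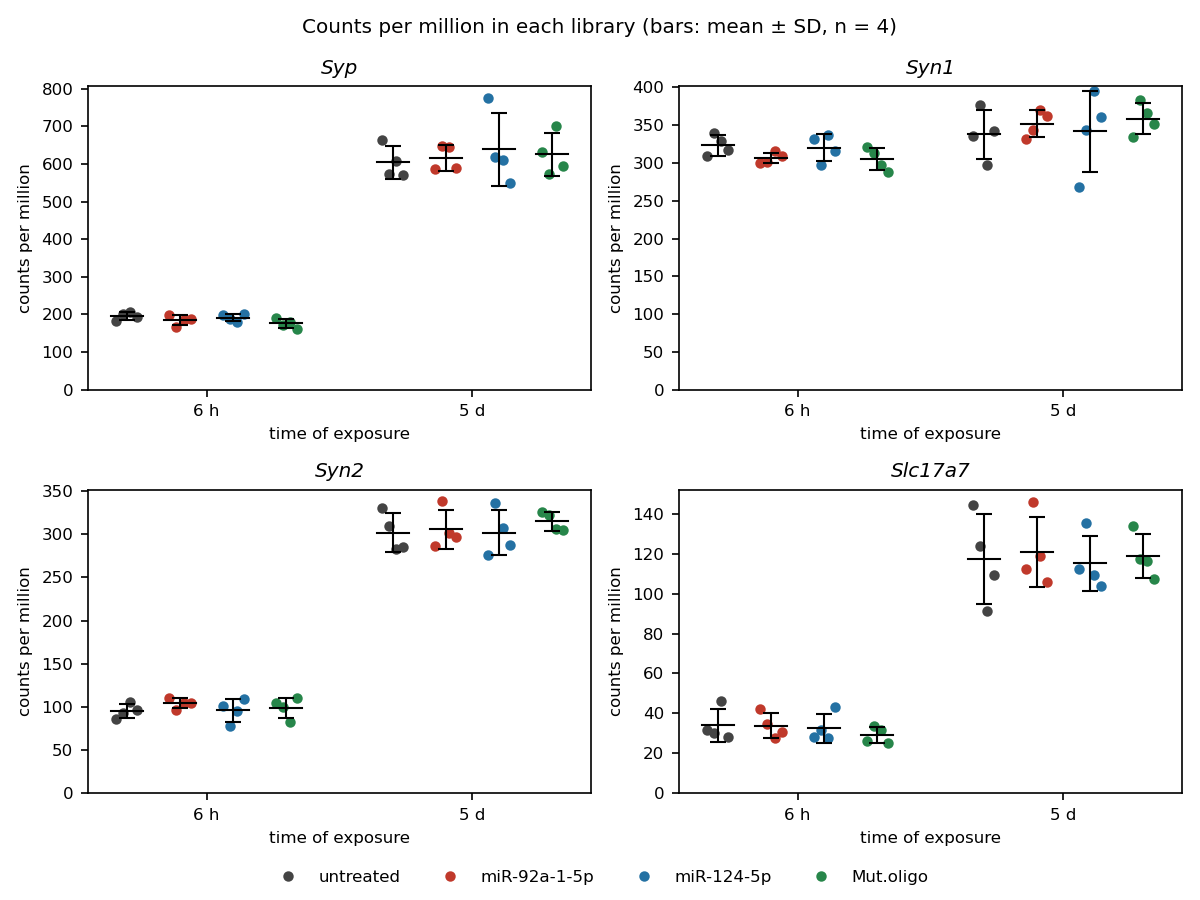
CPM of Syp, Syn1, Syn2 and Slc17a7 in each of the 32 libraries (points) by time of exposure and condition, with the mean and SD of each group (bars, n = 4). Syp, Syn2 and Slc17a7 are higher in all 16 libraries at 5 d than in any at 6 h, Syn1 overlaps between the times, and the 4 conditions overlap within each time.

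The promoters of the 4 stained genes are shown because 3 of the genes rose and Syn1, in the same cultures, was not called. Each is the RefSeq window of GRCm38.p6 from 250 bases before to 50 bases after the annotated start, 5′ to 3′ on the gene's strand. Capitals mark exact matches, on either strand, to GGGCGG (the GC box, read as CCGCCC on the other strand), TGACGTCA (the cAMP response element) and TTCAGCACC (the left part of the RE1 element).
Syp, chrX:7638330-7638629, plus strand: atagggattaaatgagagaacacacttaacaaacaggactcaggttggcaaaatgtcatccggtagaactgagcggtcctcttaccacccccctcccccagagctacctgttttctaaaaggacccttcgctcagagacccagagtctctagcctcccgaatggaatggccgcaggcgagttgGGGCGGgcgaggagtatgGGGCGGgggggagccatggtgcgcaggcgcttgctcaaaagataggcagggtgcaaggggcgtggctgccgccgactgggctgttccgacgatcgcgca
Syn2, chr6:115134652-115134951, plus strand: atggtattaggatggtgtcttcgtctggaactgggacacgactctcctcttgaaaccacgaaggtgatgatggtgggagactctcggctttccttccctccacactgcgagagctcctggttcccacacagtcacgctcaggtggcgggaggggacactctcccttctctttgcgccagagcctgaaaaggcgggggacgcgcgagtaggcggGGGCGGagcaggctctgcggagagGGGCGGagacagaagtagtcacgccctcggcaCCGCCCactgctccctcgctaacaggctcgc
Slc17a7, chr7:45163671-45163970, plus strand: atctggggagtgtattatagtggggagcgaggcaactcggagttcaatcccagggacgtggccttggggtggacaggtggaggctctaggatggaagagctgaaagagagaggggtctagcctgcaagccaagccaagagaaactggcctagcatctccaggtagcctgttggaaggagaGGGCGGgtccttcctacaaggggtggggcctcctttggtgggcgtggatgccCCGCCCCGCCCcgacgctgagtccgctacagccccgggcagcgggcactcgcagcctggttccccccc
Syn1, chrX:20920869-20921168, minus strand: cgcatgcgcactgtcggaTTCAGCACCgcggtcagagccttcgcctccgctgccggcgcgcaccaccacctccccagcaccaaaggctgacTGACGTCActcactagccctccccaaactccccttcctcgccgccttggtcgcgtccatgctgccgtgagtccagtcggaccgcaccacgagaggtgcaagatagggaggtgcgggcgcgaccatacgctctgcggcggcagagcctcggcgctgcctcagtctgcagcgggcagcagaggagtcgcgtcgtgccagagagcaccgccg
The windows of Syp, Syn2 and Slc17a7 hold 2, 3 and 3 GC boxes, a pair of those in Slc17a7 sharing a base, and neither of the other motifs. The window of Syn1 holds no GC box, 1 cAMP response element and 1 RE1 part. RefSeq promoters were matched for 30 of the 38 genes (none for Syt4, Syt7, Syn3, Snap25, Vamp2, Doc2b, Syt5 and Rims2), taking for each the entry nearest to the gene's annotated start. A GC box was present in 23 of the 30 (76.7%), against 35.7% of all 32851 promoters of the same length, in 12 of the 15 called higher in untreated cultures and in 11 of the other 15. The cAMP response element was in 1 of the 30 (1.79% of all promoters) and the RE1 part in 2 (0.371%), both among genes not called higher. A TATA box (TATAAA) was in 1 of the 30 (13.6% of all) and a CCAAT box (CCAAT) in 6 (37.4%). The 30 windows held a median of 20.5 CpG dinucleotides, and all promoters 7. The 30 are 1 window per gene, while the 32851 are every RefSeq entry. The share with a GC box was not compared at equal CpG content. A match is a string of letters and not a site shown to be bound.

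Of the 6 synaptotagmins and Doc2b, 3 of 7 rose. Doc2b, a calcium-binding protein with a high affinity that acts in spontaneous and delayed release, was at 22.3, 24.4, 30.7 and 25.5 CPM at 6 h and 89.6, 98.4, 65.1 and 82.9 CPM at 5 d without overlap (1.70 ± 0.14 (SE), adjusted p = 1.06e-11). Syt1, the sensor of fast synchronous release, was at 529, 516, 534 and 511 CPM at 6 h and 797, 811, 755 and 767 CPM at 5 d and rose by a smaller step (0.57 ± 0.086 (SE), adjusted p = 1.83e-06). Syt11, which does not bind calcium and acts in endocytosis, was at 468, 543, 514 and 530.1 CPM at 6 h and 896, 733, 829 and 754 CPM at 5 d (0.63 ± 0.066 (SE), adjusted p = 2.80e-09). Syt2, the fast sensor of hindbrain and spinal synapses, was the least abundant of the 38 (0.214 ± 0.0325 CPM per kilobase at 6 h and 0.252 ± 0.0437 at 5 d) and overlapped between the times (0.22 ± 0.18 (SE), adjusted p = 0.328). Syt4, Syt5 and Syt7 were not called, with log2 fold changes of 0.26, 0.061 and 0.21 and adjusted p from 0.056 to 0.489. Syt4 was nevertheless the second most abundant per kilobase at both times (153 ± 15.5 and 184 ± 12.1 CPM).

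Of the 4 SNARE proteins 1 was called. Vamp1, a vesicle SNARE of spinal and brainstem terminals, was at 4.61, 5.87, 4.62 and 5.43 CPM at 6 h and 7.09, 6.96, 9.40 and 7.68 CPM at 5 d and rose (0.59 ± 0.10 (SE), adjusted p = 2.05e-05). Vamp2, the vesicle SNARE of the forebrain and the most abundant of the 38 per kilobase (176 ± 6.07 CPM at 6 h and 218 ± 15.1 at 5 d), moved without overlap but by less than the minimum fold (0.29 ± 0.056 (SE), adjusted p = 5.90e-05). Their ratio per kilobase was near 0 at both times (0.00286 and 0.00351 on average; exact permutation p = 0.0286, adjusted 0.0416 over the 16). Snap25, the plasma membrane SNARE, lay just under the minimum fold: 285, 299, 284 and 274 CPM at 6 h and 417, 398, 411 and 389.6 CPM at 5 d, 0.49 ± 0.084 (SE), adjusted p = 1.26e-05. Its log2 fold change ranged from 0.50 to 0.54, past the minimum, in each of the 8 fits that left out 1 untreated library, and was 0.52 with no filter on low counts. Stx1a, its partner on the plasma membrane, had 0.28 ± 0.11 (SE), adjusted p = 0.0367 and overlapping groups.

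Factors that act on SNARE complexes went both ways. Nsf, the ATPase that takes spent complexes apart, was at 163, 182, 175 and 175 CPM at 6 h and 338, 332, 318 and 298 CPM at 5 d (0.88 ± 0.074 (SE), adjusted p = 3.98e-11). Napb, the adaptor (beta-SNAP) that brings NSF to them, was at 211, 219, 206 and 212 CPM at 6 h and 372, 404, 359.7 and 362 CPM at 5 d (0.81 ± 0.078 (SE), adjusted p = 4.56e-10). The 2 genes thus rose by a similar step, with no overlap between the times. Cplx1, complexin 1, was the only gene of the 38 called lower: 266, 280.3, 255 and 269 CPM at 6 h and 186, 209, 160.4 and 178 CPM at 5 d (-0.55 ± 0.081 (SE), adjusted p = 1.23e-06). Every 5 d library lay below every 6 h library, but without untreated 5 d replicate 3, the lowest of them, the log2 fold change was -0.47 and the call was lost. Cplx2, its paralog in excitatory neurons, was at 447, 507, 497 and 475 CPM at 6 h and 614, 714, 521 and 606 CPM at 5 d and stayed under the minimum fold (0.34 ± 0.092 (SE), adjusted p = 0.00218). The ratio of Cplx2 to Cplx1 per kilobase was 0.747, 0.804, 0.866 and 0.784 in untreated 6 h libraries and 1.47, 1.52, 1.44 and 1.51 in those at 5 d. Per kilobase the order of the pair was the reverse at 5 d in every untreated library (exact permutation p = 0.0286, adjusted 0.0416 over the 16). In CPM not divided by length, Cplx2 stood above Cplx1 in every untreated library at both times. The order at 6 h thus rests on the exon lengths used. Stxbp5, tomosyn, which holds SNARE proteins back from fusion, had 0.39 ± 0.092 (SE), adjusted p = 7.40e-04 and was not called.

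Of the active zone and priming genes 2 of 9 were called, with a median log2 fold change of 0.19, the lowest of the 8 roles. Unc13c (Munc13-3) was at 3.12, 1.59, 3.95 and 2.60 CPM at 6 h and 4.79, 4.67, 6.45 and 6.18 CPM at 5 d (0.95 ± 0.24 (SE), adjusted p = 0.00106), and it is, after Syt2, the least abundant of the 38. Erc2 (CAST), a scaffold of the active zone, was at 187, 158, 199.7 and 181 CPM at 6 h and 276, 302, 243 and 290.4 CPM at 5 d (0.61 ± 0.11 (SE), adjusted p = 1.95e-05). Unc13a, the main priming factor of forebrain synapses, was at 318, 282, 266 and 287 CPM at 6 h and 261, 317, 205 and 299 CPM at 5 d, with overlap (-0.097 ± 0.12 (SE), adjusted p = 0.523). Its paralog Unc13b lay below every 6 h library in every 5 d library (47.3, 48.3, 41.3 and 41.8 CPM at 6 h and 29.8, 31.9, 33.8 and 40.4 CPM at 5 d) but by less than the minimum fold (-0.40 ± 0.10 (SE), adjusted p = 0.00108). Rab3a, the vesicle GTPase that docks at the active zone, was at 323, 347, 334 and 330.5 CPM at 6 h and 305, 329, 289.7 and 294 CPM at 5 d (-0.14 ± 0.066 (SE), adjusted p = 0.0693). Rims1 and Rims2, scaffolds that bind Rab3 and calcium channels, had 0.26 ± 0.089 (SE), adjusted p = 0.0147 and 0.19 ± 0.086 (SE), adjusted p = 0.061. The giant scaffolds Bsn (bassoon) and Pclo (piccolo) varied widely between libraries of a group: at 5 d untreated Pclo was at 227, 226, 158 and 344 CPM and Bsn at 285, 282, 208 and 336 CPM. Their log2 fold changes were 0.51 ± 0.25 (SE), adjusted p = 0.085 and 0.14 ± 0.16 (SE), adjusted p = 0.46, neither called, and Pclo crossed the threshold without untreated 6 h replicate 1 (0.67) or untreated 5 d replicate 3 (0.68). The exons of Bsn overlap those of the predicted gene Gm47303 on the same strand, so its counts are less certain.

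Endocytosis genes had 2 of 3 called. Dnm1, dynamin 1, the GTPase that pinches vesicles off the membrane, was at 169, 172, 195 and 182 CPM at 6 h and 294, 282, 277 and 274 CPM at 5 d (0.64 ± 0.059 (SE), adjusted p = 2.29e-10). Synj1, synaptojanin 1, a phosphatase that sheds the coat, was at 184, 178, 185 and 178 CPM at 6 h and 266, 261, 272 and 276 CPM at 5 d (0.56 ± 0.092 (SE), adjusted p = 7.71e-06). Amph, amphiphysin, which recruits dynamin, was at 155, 165, 167 and 155 CPM at 6 h and 202, 222, 187 and 195 CPM at 5 d. It did not overlap between the times but stayed under the minimum fold (0.32 ± 0.067 (SE), adjusted p = 1.56e-04).

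**Figure D3:**
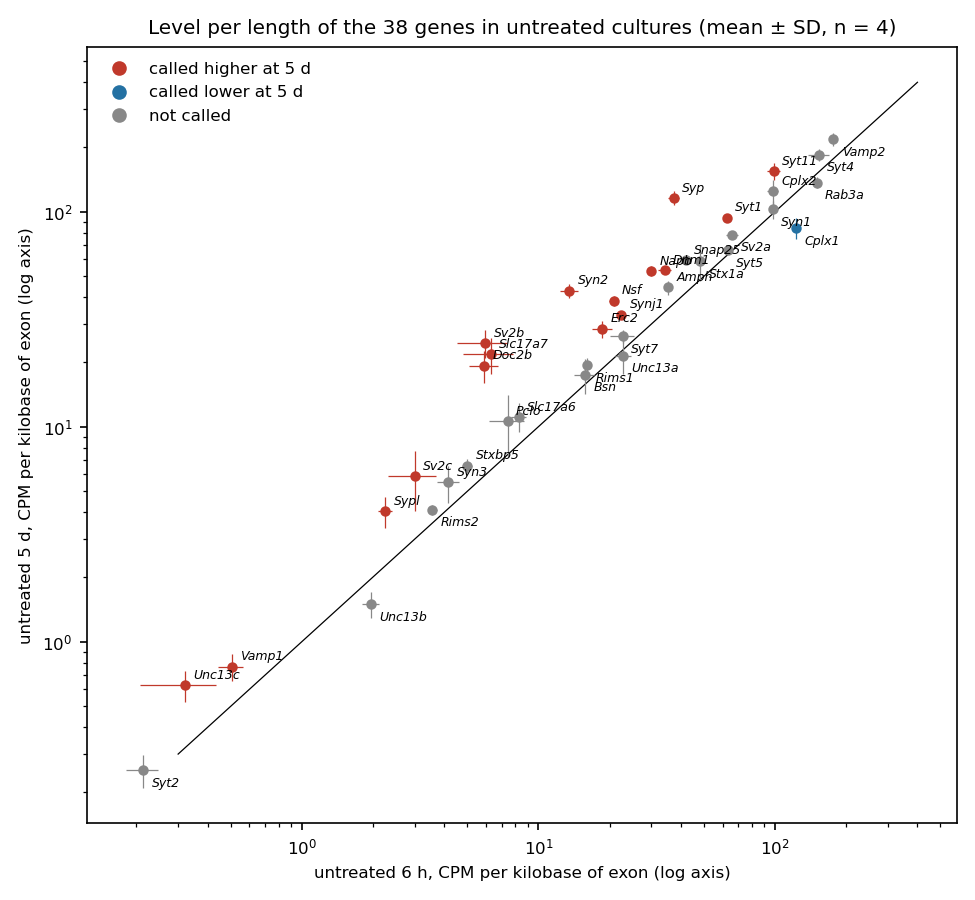
Mean level per kilobase of exon of the 38 genes in untreated cultures at 6 h (x axis) and 5 d (y axis), both on log axes, with SD (n = 4) and the line of equal level; red marks genes called higher, blue lower, grey not called. The levels run from 0.214 CPM per kilobase for Syt2 to 176 for Vamp2 at 6 h, and Syp, Syn2, Sv2b, Slc17a7 and Doc2b stand farthest above the line.

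A list of 68 other presynaptic genes gives the wider setting: 25 were called higher and 1 lower in untreated cultures, with a median log2 fold change of 0.28. The largest called rises were in the synaptotagmins Syt17 (3.57 ± 1.06 to 14.9 ± 2.90 CPM, mean ± SD, n = 4; log2 fold change 2.04 ± 0.18, SE) and Syt12 (0.983 ± 0.248 to 4.06 ± 0.544 CPM; 2.02 ± 0.18), in Doc2a, a paralog of Doc2b (4.87 ± 0.769 to 17.6 ± 3.57 CPM; 1.85 ± 0.15) and in the vesicle protein Synpr, synaptoporin (27.8 ± 1.99 to 89.53 ± 20.02 CPM; 1.67 ± 0.17). The fall was in Syt6 (42.0 ± 6.61 to 29.4 ± 8.30 CPM; -0.54 ± 0.15). Among all genes 19.1% were called higher and 14.3% lower in this comparison. By kind, 7 of 11 genes of the list of other synaptotagmins, 7 of 14 other vesicle proteins and 4 of 10 other SNARE genes were called higher. So were 3 of 16 other active zone genes and 4 of 17 other endocytosis genes, which is near the share of all genes. The median of the active zone genes was 0.19, the value the active zone genes of the 38 also had.

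The same step from 6 h to 5 d was then taken in the cultures that held an oligoribonucleotide. After miR-92a-1-5p, 16 of the 38 were called higher and 1 lower (all genes 18.3% and 15.7%), after miR-124-5p 17 and 1 (19.5% and 14.7%), and after Mut.oligo 18 and 1 (18.7% and 15.4%). Of the 38, 15 were called higher in all 4 conditions, against 13.4% of all genes: Syn2, Syp, Sypl, Sv2b, Sv2c, Syt1, Syt11, Doc2b, Nsf, Napb, Unc13c, Erc2, Dnm1, Synj1 and Slc17a7. None of the 38 was called lower in all 4 (all genes 10.1%). The 4 conditions share experiment batches in part within each time and come from 1 fit, so their calls are not independent. Vamp1, Snap25, Stx1a and Cplx2 were called higher in 2, 3, 1 and 1 of the conditions. Cplx1 was called lower in untreated cultures and Unc13b in the other 3, with log2 fold changes over the 4 conditions of -0.55 to -0.27 for Cplx1 and -0.60 to -0.40 for Unc13b. The other 17 were called in no condition.

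Over the 4 conditions the log2 fold change ranged from 1.62 to 1.87 for Syp, 1.57 to 1.72 for Syn2, 1.78 to 2.07 for Slc17a7, 1.86 to 2.47 for Sv2b and 1.63 to 1.84 for Doc2b. For Syn1 it ranged from 0.058 to 0.28. The 12 libraries with an oligoribonucleotide held 162 to 200.2 CPM of Syp at 6 h and 549.7 to 776 at 5 d, and 25.1 to 43.1 and 104 to 146 CPM of Slc17a7. Sv2b was at 34.1 to 74.3 and 187 to 249 CPM in them, Doc2b at 19.4 to 30.0 and 73.9 to 94.4 CPM, and Syn2 at 77.4 to 110.4 and 276 to 339 CPM. For these 5 genes the times did not overlap in any of these libraries. By library, Sv2b went from 68.8, 52.1, 41.2 and 74.3 CPM to 202, 227, 208 and 213 CPM with miR-92a-1-5p, from 38.3, 43.7, 38.7 and 65.8 CPM to 187, 220.5, 219.6 and 215 CPM with miR-124-5p and from 34.1, 46.8, 49.2 and 37.3 CPM to 220.2, 249, 221 and 216 CPM with Mut.oligo. Doc2b went from 28.9, 24.3, 27.4 and 23.6 CPM to 73.9, 90.0, 94.1 and 84.1 CPM with miR-92a-1-5p, from 28.9, 19.4, 25.7 and 30.0 CPM to 74.3, 81.0, 86.4 and 80.0 CPM with miR-124-5p and from 27.005, 26.9, 20.9 and 28.6 CPM to 85.7, 94.4, 94.2 and 84.5 CPM with Mut.oligo. Both genes keep a wide gap in all 3, and the Mut.oligo group holds both the lowest level of Sv2b at 6 h and the highest at 5 d. Nsf (148 to 179.5 and 282 to 343 CPM), Napb (188 to 209.6 and 319 to 409 CPM), Dnm1 (157 to 189 and 267 to 314 CPM), Sypl (17.0 to 21.2 and 29.4 to 37.7 CPM) and Syt11 (449 to 546 and 733 to 963 CPM) did not overlap there either, and Cplx1 was at 231 to 269.8 and 163 to 216 CPM. Genes called in no condition could be set apart in the same way, as Sv2a, Vamp2 and Amph were. The share of all genes without overlap was not counted in the exposed libraries.

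Whether the step itself differed from that in untreated cultures was tested as an interaction. No gene of the 38 and no gene of all 20425 was called in any of the 3 interactions (0% in each). At an unadjusted p under 0.05 there were 0, 0 and 6 of the 38, where all genes had 3.92%, 2.64% and 5.55%. The 6 for Mut.oligo were Syt5 (0.27 ± 0.10 (SE), unadjusted p = 0.0112, adjusted p = 0.857), Vamp2 (0.20 ± 0.079 (SE), unadjusted p = 0.0187, adjusted p = 0.857), Cplx1 (0.28 ± 0.11 (SE), unadjusted p = 0.0196, adjusted p = 0.857), Syp (0.25), Rab3a (0.21) and Syt2 (-0.56). For miR-92a-1-5p the 3 smallest p belonged to Syt2, Syt5 and Vamp2 (-0.45, 0.16 and 0.12), and for miR-124-5p to Syt2, Syt5 and Cplx1 (-0.45, 0.11 and 0.13). The 3 interactions share the untreated libraries. Of the 38 intervals, 29, 30 and 26 lay within ±0.5, so that for the remaining genes, Slc17a7 and Sv2b among them in each comparison, a difference of that size was not left out by these data.

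**Figure D4:**
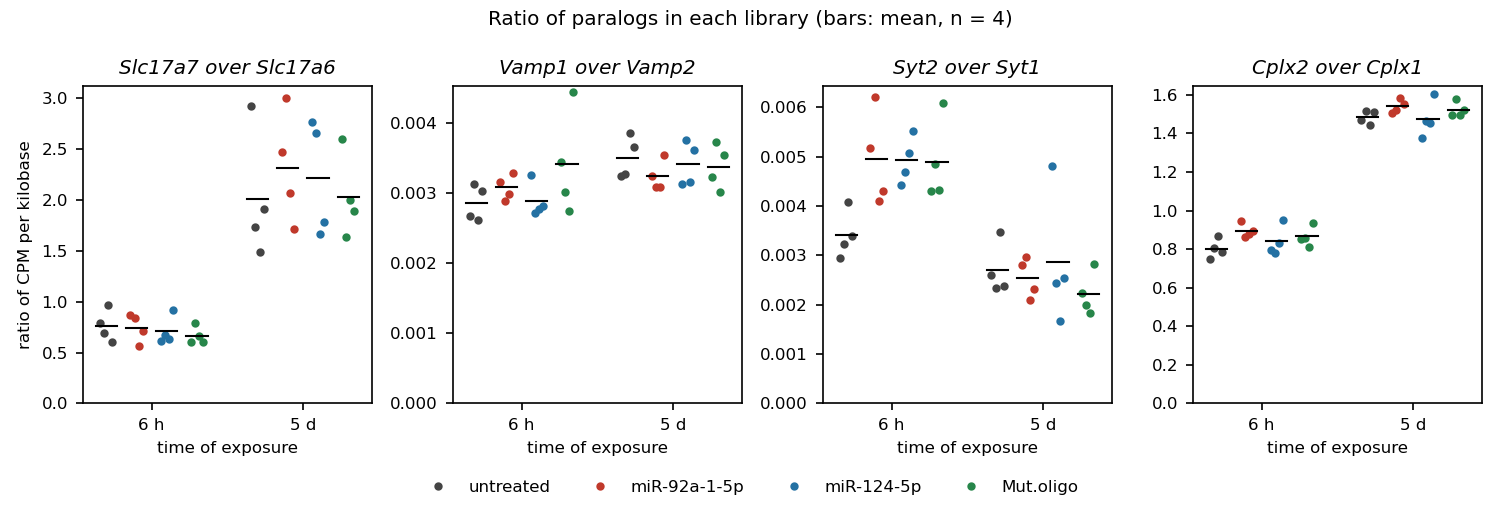
Ratio of CPM per kilobase of 4 pairs of paralogs in each of the 32 libraries (points; bars are group means, n = 4) by time of exposure and condition. Slc17a7 over Slc17a6 and Cplx2 over Cplx1 are higher at 5 d in every condition without overlap, while Vamp1 over Vamp2 and Syt2 over Syt1 stay under 0.01 throughout.

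In the exposed cultures too, the ratio of Slc17a7 to Slc17a6 rose without overlap (means 0.744 to 2.31 after miR-92a-1-5p, 0.712 to 2.22 after miR-124-5p and 0.666 to 2.03 after Mut.oligo), and so did that of Cplx2 to Cplx1 (0.896 to 1.54, 0.840 to 1.47 and 0.866 to 1.52; exact permutation p = 0.0286 and adjusted 0.0416 in each of these 6). The ratio of Syt2 to Syt1 was lower at 5 d without overlap after miR-92a-1-5p and Mut.oligo (0.00494 to 0.00254 and 0.00489 to 0.00222; the same p), but overlapped in untreated cultures (0.00341 to 0.00270, exact permutation p = 0.114) and after miR-124-5p (0.00493 to 0.00287, p = 0.0857). Vamp1 over Vamp2 overlapped in all 3 exposed conditions.

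The exposures were next compared with untreated cultures at the same time. At 6 h none of the 38 genes was called in the 3 comparisons. In this edgeR fit, which had no batch covariate, none of the 18755 genes tested was called either (0% in each). With the experiment batch as a covariate and no minimum fold, 198 genes (1.06%) had an adjusted p under 0.05 in edgeR after miR-92a-1-5p. The study, using DESeq2, reported genes changed by both microRNAs at 6 h and by all 3 oligoribonucleotides at 5 d. The absence of calls here therefore does not show that no gene changed. Unadjusted, 4 of the 38 for miR-92a-1-5p, 2 for miR-124-5p and 6 for Mut.oligo had a p under 0.05 in edgeR (10.5%, 5.26% and 15.8%). All genes had 4.75%, 4.54% and 9.49%. DESeq2 called none of the 38 either. The median log2 fold change of the 38 was -0.021, -0.0031 and -0.059, and that of all genes between -0.0033 and 0.0055. The standard errors ran from 0.039 to 0.28, and 35, 33 and 32 of the 38 intervals lay within ±0.5. The genes whose intervals reached past it were Sv2b, Syt2 and Unc13c in each comparison, Sv2c and Pclo after miR-124-5p and Mut.oligo, and Slc17a7 after Mut.oligo.

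Syp at 6 h was at 199, 167, 185 and 188 CPM after miR-92a-1-5p, 197, 189, 179 and 200.2 CPM after miR-124-5p and 191, 172, 179.5 and 162 CPM after Mut.oligo, beside 182, 199.7, 205 and 193 CPM untreated. The groups overlapped, with log2 fold changes of -0.081, -0.019 and -0.15 (adjusted p = 0.999, 1.00 and 0.468). Syn1 was at 300.4, 301, 316 and 309 CPM after miR-92a-1-5p, 331, 297, 337 and 316 CPM after miR-124-5p and 321, 313, 298 and 288 CPM after Mut.oligo (-0.079, -0.007 and -0.085). Syn2 was at 110.4, 96.4, 105 and 105 CPM, 101, 77.4, 95.5 and 109 CPM and 104, 99.5, 82.3 and 109.8 CPM in the same order (0.13, 0.019 and 0.053). No group of either synapsin stood clear of the untreated libraries. Slc17a7 was at 42.3, 34.6, 27.5 and 30.6 CPM, 28.2, 31.5, 27.4 and 43.1 CPM and 26.2, 33.4, 31.4 and 25.1 CPM (-0.015, -0.054 and -0.22). It had the widest intervals of the 4, -0.61 to 0.16 after Mut.oligo.

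Syt2 had the largest estimate of the 38 after each oligoribonucleotide at 6 h, and the smallest p after both microRNAs. It was at 1.43, 1.52, 1.99 and 1.59 CPM untreated, 2.36, 2.74, 1.88 and 1.93 CPM after miR-92a-1-5p, 2.01, 2.22, 2.40 and 2.56 CPM after miR-124-5p and 1.88, 2.16, 2.01 and 2.42 CPM after Mut.oligo. All 4 miR-124-5p libraries lay above the untreated ones, by a small margin, and the other groups overlapped. The log2 fold changes were 0.44 ± 0.16 (SE), unadjusted p = 0.0147, adjusted p = 0.999 for miR-92a-1-5p, 0.50 ± 0.17 (SE), unadjusted p = 0.00756, adjusted p = 1.00 for miR-124-5p and 0.37 ± 0.17 (SE), unadjusted p = 0.0418, adjusted p = 0.505 for Mut.oligo, so none passed. The 3 comparisons share the untreated libraries, and the levels are those of the least abundant of the 38 genes.

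The other smallest p at 6 h were those of Cplx1 and Rims1 after miR-92a-1-5p (-0.097 ± 0.04 (SE) and -0.12 ± 0.05 (SE)), of Bsn and Pclo after miR-124-5p (0.21 ± 0.089 (SE) and 0.30 ± 0.15 (SE)), and of Cplx1, Syt1 and Rab3a after Mut.oligo (-0.12 ± 0.04 (SE), -0.14 ± 0.051 (SE) and -0.11 ± 0.046 (SE)), with adjusted p from 0.386 to 1.00. Cplx1 was at 246, 243, 249.9 and 263 CPM after miR-92a-1-5p and 254, 249, 248 and 231 CPM after Mut.oligo, beside 266, 280.3, 255 and 269 CPM untreated. All 4 Mut.oligo libraries lay below the untreated ones, for Cplx1 and for Syt1. All 4 miR-92a-1-5p libraries did so for Syt1, Rims1 and Rab3a, by a very small margin for Rims1. The share of all genes with groups set apart in this way was not counted at 6 h. Rims1 was at 102, 112, 115 and 108 CPM after miR-92a-1-5p and 119, 115, 118 and 121 CPM untreated. Syt1 was at 476, 485, 507 and 434 CPM and Rab3a at 319.6, 324, 309.7 and 281 CPM after Mut.oligo, beside 529, 516, 534 and 511 CPM and 323, 347, 334 and 330.5 CPM untreated. After miR-124-5p Bsn was at 263, 292, 289 and 308 CPM and Pclo at 165, 223, 221 and 208 CPM, beside 258, 219, 277 and 249 CPM and 202, 137, 173 and 155 CPM. For Cplx1, Rims1, Syt1 and Rab3a the estimates are below 0.15 in size on the log2 scale.

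Since each of the 4 miR-92a-1-5p libraries at 6 h shares its experiment batch with an untreated library, this comparison could be read within batches. In that reading 6 of the 38 were higher in all 4 batches and 12 lower in all 4 (15.8% and 31.6%), where all genes had 13.1% and 11.9%. These counts take the sign of any CPM difference, however small, without TMM scaling. The genes behind the shares of all genes were not matched to the 38 for abundance. Sv2b was higher by a log2 difference of 0.13 to 0.29 in the 4 batches, although its libraries (68.8, 52.1, 41.2 and 74.3 CPM after miR-92a-1-5p and 42.7, 63.0, 56.5 and 37.6 CPM untreated) overlapped. With the batch as a covariate its log2 fold change was 0.23 ± 0.048 (SE), adjusted p = 0.0322, the only one of the 38 with an adjusted p under 0.05 in that fit (1.06% of all genes), and without the covariate it was 0.24 ± 0.21 (SE), adjusted p = 0.999. The size, 1.18-fold, is under the minimum of the call. Syp was lower in all 4 batches (-0.12 to -0.045) and so was Syn1 (-0.14 to -0.0037), Syn2 was higher in all 4 (0.071 to 0.17), and Slc17a7 went both ways (-0.12 to 0.13). With the covariate these had adjusted p of 0.254, 0.269, 0.270 and 0.980. Syt2 was higher in all 4 batches (0.24 to 0.94; 0.44 ± 0.14 (SE), adjusted p = 0.16). For miR-124-5p and Mut.oligo, with 2 shared batches each, no gene of the 38 reached an adjusted p under 0.05 with the covariate (smallest 0.822 and 0.158).

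**Figure D5:**
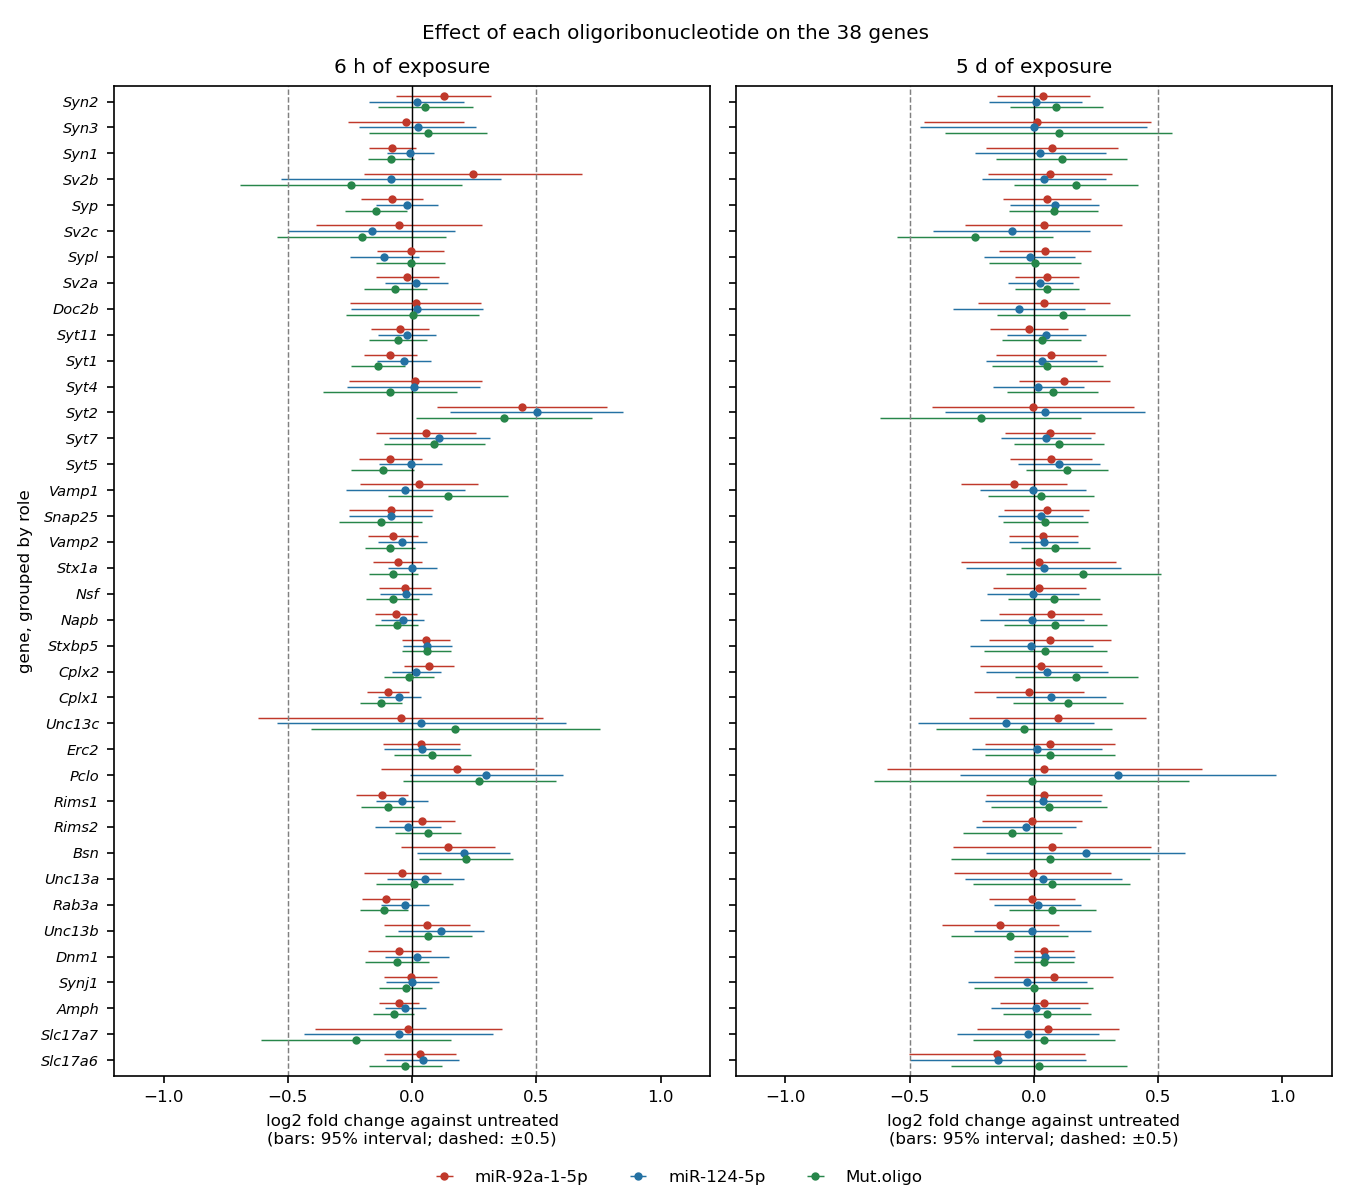
Log2 fold change against untreated cultures (x axis) of the 38 genes (y axis, grouped by role) after 6 h (left) and 5 d (right) of each oligoribonucleotide; points are estimates, bars 95% intervals, dashed lines ±0.5. No gene was called, every estimate but those of Syt2 and Pclo lies within ±0.25, Syt2 at 6 h is the farthest from 0, and the intervals at 5 d are wider than at 6 h for most genes.

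At 5 d again none of the 38 was called after any of the 3, and 1 of 19333 genes tested was called after miR-92a-1-5p (0.00517%, not one of the 38), none after miR-124-5p (0%) and none after Mut.oligo (0%). No gene of the 38 had an unadjusted p under 0.05 in these 3 comparisons, where all genes had 3.63%, 2.60% and 2.79%, and DESeq2 called none of the 38. The median log2 fold change of the 38 was 0.042, 0.022 and 0.063. Standard errors ran from 0.058 to 0.30, and 36, 36 and 33 of the 38 intervals lay within ±0.5.

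Syp at 5 d was at 664, 574, 609 and 569.8 CPM untreated, 585, 648, 645 and 589 CPM after miR-92a-1-5p, 776, 619, 610.0 and 549.7 CPM after miR-124-5p and 633, 572, 702 and 595 CPM after Mut.oligo. The log2 fold changes against untreated were 0.053, 0.084 and 0.08, with 95% intervals that lie between -0.13 and 0.26. Syn1 was at 331, 343, 371 and 362 CPM, 269, 344, 396 and 361 CPM and 334, 383, 366 and 352 CPM in the same order, beside 336, 377, 298 and 343 CPM untreated (0.074, 0.027 and 0.11). Syn2 was at 286, 339, 301 and 296 CPM, 276, 336, 307 and 288 CPM and 326, 322, 307 and 305 CPM, beside 330.1, 309.9, 283 and 285 CPM (0.038, 0.0075 and 0.09). These groups all overlap. Slc17a7 was at 113, 146, 119 and 106 CPM, 112, 135, 109 and 104 CPM and 134, 117, 116 and 107 CPM, beside 145, 123.9, 91.4 and 109 CPM (0.059, -0.024 and 0.042). The untreated group spans the widest range of the 4 for Slc17a7.

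The smallest p of the 38 at 5 d, in edgeR's quasi-likelihood test, were those of Syt4 (0.12 ± 0.087 (SE)) after miR-92a-1-5p and of Syt5 after miR-124-5p (0.10 ± 0.078 (SE)) and Mut.oligo (0.13 ± 0.078 (SE)), all with an adjusted p of 0.999 or above in edgeR. Syt4 was at 711, 778, 759.7 and 833 CPM after miR-92a-1-5p and 775, 715, 659 and 721 CPM untreated. Syt5 was at 194, 153, 174 and 154 CPM after miR-124-5p, 159, 155, 191 and 172 CPM after Mut.oligo and 163, 158, 155 and 155 CPM untreated. Each pair of groups overlapped. Next came Unc13b and Syt5 after miR-92a-1-5p (-0.14 ± 0.11 (SE) and 0.07 ± 0.078 (SE)), Pclo and Bsn after miR-124-5p (0.34 ± 0.30 (SE) and 0.21 ± 0.19 (SE)), and Sv2c and Cplx2 after Mut.oligo (-0.24 ± 0.15 (SE) and 0.17 ± 0.12 (SE)). Pclo was at 152, 358, 327 and 362 CPM after miR-124-5p and Sv2c at 58.4, 40.1, 41.7 and 48.2 CPM after Mut.oligo, beside 227, 226, 158 and 344 CPM and 53.4, 41.9, 83.0 and 50.3 CPM untreated. In Pclo the first miR-124-5p library is the lowest of that group and in Sv2c the third untreated library is the highest of all.

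Within the batches shared at 5 d, Slc17a7 was lower after miR-124-5p in 2 of 2 (-0.097 to -0.078) and after Mut.oligo in 3 of 3 (-0.11 to -0.027), and after miR-92a-1-5p it went both ways. In 2 of 2 batches Syp was lower after miR-124-5p (-0.10 to -0.052), opposite to its estimate over all libraries. So were Sv2a, Syt5, Syt11, Doc2b, Stx1a, Rab3a and Dnm1, while others of the 38, Syn1 and Syn2 among them, were higher in 2 of 2. The share of all genes that kept 1 sign in these batches was not counted, so these signs set no gene apart. With the batch as a covariate none of the 38 had an adjusted p under 0.05 at 5 d (smallest 0.283, 1.00 and 1.00).

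Set against the control oligoribonucleotide in place of untreated cultures, the 2 microRNAs again gave no call among the 38, at 6 h or at 5 d (0% of all genes in each of the 4 comparisons). One of the 38 had an unadjusted p under 0.05 in each comparison at 6 h, Sv2b for miR-92a-1-5p (0.49 ± 0.21 (SE), unadjusted p = 0.0316, adjusted p = 1.00) and Syp for miR-124-5p (0.13 ± 0.059 (SE), unadjusted p = 0.046, adjusted p = 1.00), and none had at 5 d. Sv2b was at 68.8, 52.1, 41.2 and 74.3 CPM after miR-92a-1-5p and 34.1, 46.8, 49.2 and 37.3 CPM after Mut.oligo, which overlap. At 5 d the smallest p belonged to Sv2c for miR-92a-1-5p (0.28 ± 0.15 (SE)), followed by Cplx1 and Stx1a (-0.16 and -0.18), and to Doc2b for miR-124-5p (-0.18 ± 0.13 (SE)), followed by Syt2 and Pclo (0.26 and 0.35), each with an adjusted p of 1.00 in edgeR. Sv2c was at 61.9, 60.0, 55.4 and 52.1 CPM after miR-92a-1-5p and 58.4, 40.1, 41.7 and 48.2 CPM after Mut.oligo. Doc2b was at 74.3, 81.0, 86.4 and 80.0 CPM after miR-124-5p and 85.7, 94.4, 94.2 and 84.5 CPM after Mut.oligo. None of the 68 other presynaptic genes was called in any of the 10 comparisons between exposures.

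A microRNA inside a cell pairs through its seed with sites in 3′ untranslated regions, so the sites of miR-92a-1-5p were looked up among the 38. The match to its seed, CCCAACC, was searched on the sense strand of the longest annotated 3′ untranslated region of each gene (GENCODE M21). It was found in 9 of the 38 (23.7%), 11 times in all, and in 9.01% of 21010 protein-coding genes, whose regions are shorter (median 960 bases, against 2444 for the 38). Among 5404 genes with regions in the middle range (between the lower and upper quartile) of the lengths of the 38, 12.8% held a match. That range leaves out the longest regions of the 38, such as those of Syt2 (5468 bases) and Cplx2 (4208 bases), with 2 matches each. The shares of 23.7% and 12.8% are therefore not matched for length. The sites in Sv2b and Dnm1 and the first of 2 in Syt2 and in Cplx2 are shown with the match in capitals, as they belong to genes described above.
Sv2b, chr7:75117031-75117060, minus strand: atatagaaaaaCCCAACCtttaagcaaaat
Syt2, chr1:134749103-134749132, plus strand: taagtacccttCCCAACCtgcagcctgggc
Cplx2, chr13:54380598-54380627, plus strand: gcacacctctcCCCAACCcgacctaaagaa
Dnm1, chr2:32308566-32308595, minus strand: cccttggccatCCCAACCctgcagcaaggg
The other genes with a match were Stx1a, Vamp2, Stxbp5, Unc13c and Bsn. After miR-92a-1-5p the 9 had log2 fold changes from -0.077 (Vamp2) to 0.44 (Syt2) at 6 h and from -0.0038 (Syt2) to 0.095 (Unc13c) at 5 d. Their median was 0.057 at 6 h and 0.041 at 5 d, and that of the 29 without a match -0.024 and 0.042. The genes with the 2 largest estimates at 6 h, Syt2 and Sv2b, are among the 9. Neither was called, and the intervals of both reached past 0.5. Syt2 also had the largest estimate after the other 2 oligoribonucleotides. Whether the matches bear on any of these values was not tested.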

How the data were processed

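Messenger RNA of 32 cortical neuron cultures (8 groups of 4 biological replicates, grouped by the labels) was sequenced in single-end reads of stranded libraries. The authors deposited raw read counts per gene, made with STAR and featureCounts (Subread) on GRCm38, as the submitters' processing notes and the study's methods give them. Gene symbols, positions and exon lengths were taken from GENCODE M21, whose release is later than the authors' annotation, and 345 of 49671 identifiers had no symbol there.

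Each fit kept the genes that reached 5 counts in 3 or more of its libraries, and tested them with edgeR 4.0.16 (TMM, quasi-likelihood test, Benjamini-Hochberg adjustment over all genes tested) under R 4.3.3. The 16 libraries of a time point were fitted together for comparisons between exposures, and all 32 for changes with time. Standard errors were derived from the F statistic. Ratios of paralogs were compared by exact permutation tests, two-sided. The fit was tested on simulated data. Alternatives were DESeq2 1.42.0, RLE scaling, 2 other filters, the experiment batch or the replicate number as a covariate, 2-group fits, no minimum fold, and each library left out.

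Library totals ranged from 24514090 to 73626029 counts. Replicates differed by more than sampling noise. Within a group each replicate carries its own experiment batch label, and batches are shared only between groups. The labels do not say whether libraries that share a batch came from the same preparation of neurons, and p-values measure the spread between these libraries.

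All 38 genes are accounted for. Named with library values are the 4 stained genes, the genes called with the smallest p (up to 10 a comparison, in ranges for the oligoribonucleotide libraries where stated) or, with fewer than 3 calls, the 3 smallest p, and 4 pairs of paralogs. Of the other presynaptic genes, the 4 largest called rises and falls are named. The 38 genes and all lists were chosen with earlier results of these data known. The result of 1 marker list is not reported here.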

Additional observations from a re-analysis of the deposited data

Results flagged for a closer look

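Of 304 groups of 4 libraries (38 genes in 8 groups), 12 had a highest or lowest library set apart from the others by more than Dixon's 95% critical value, or 3.95%, where chance flags about 1 in 20. Of these, 4 belonged to miR-124-5p 5 d replicate 1, the library with the lowest mitochondrial share: Pclo (152 CPM, the others 327 CPM or above), Unc13a (225 CPM, the others 291 CPM or above), Rims1 (119 CPM, the others 152 CPM or above) and Stxbp5 (85.4 CPM, the others 113 CPM or above). The same library had the highest Syp of its group, at 776 CPM. In miR-92a-1-5p 6 h replicate 2 Syt11 (454 CPM) and Napb (188 CPM) were low, in replicate 1 Syt5 was high (153 CPM), and in replicate 3 Sypl was high (20.2 CPM). In the miR-124-5p group at 6 h, Nsf was low in replicate 2 (152 CPM) and Syt5 in replicate 3 (138 CPM). Sv2a was low in Mut.oligo 6 h replicate 4 (268 CPM), and Sv2b was high in Mut.oligo 5 d replicate 2 (249 CPM).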

How the results depend on the processing

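With no minimum fold, 25 genes were higher and 2 lower from 6 h to 5 d in untreated cultures, 27 and 2 with miR-92a-1-5p, 26 and 2 with miR-124-5p, and 30 and 2 with Mut.oligo. The experiment batch as a covariate together with no minimum fold, chosen after seeing the data, gave 1 gene (Sv2b) for miR-92a-1-5p against untreated at 6 h and 0 in the other 9 comparisons. With 1 library left out, 17 to 19 genes were called higher in untreated cultures, 16 to 17 with miR-92a-1-5p, 16 to 19 with miR-124-5p and 19 to 22 with Mut.oligo. The count called lower was 0 to 1 in untreated cultures (0 without 5 d replicate 3, 1 otherwise), 1 to 1 with miR-92a-1-5p, 0 to 1 with miR-124-5p (0 without 6 h replicate 2 or 5 d replicate 1) and 0 to 1 with Mut.oligo (0 without 6 h replicate 3 or 5 d replicate 3). The comparisons between exposures and the interactions stayed at 0 calls, lowest and highest, with any library left out. In all, 352 of 366 counts stayed within 1.5 times. These include the comparisons between exposures and the interactions, where a count of 0 that stays 0 meets the limit. The share thus says little about the counts of the change with time. In untreated cultures every fit with 1 library left out called more genes higher than the 16 of the full fit. Of 1204 values of single genes, 1189 kept their side of the threshold (46 of these, never called, changed sign), 14 came to pass it (Snap25, Syn3, Pclo and Slc17a6 in the untreated change with time) and 1 no longer did (Cplx1, -0.47).

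The replicate number as a block changed no call: 16 genes higher and 1 lower in untreated cultures, 16 and 1, 17 and 1, and 18 and 1 after the 3 oligoribonucleotides, and 0 in every other comparison. The numbers were not taken to pair the libraries, since deviations of same-numbered libraries correlated between -0.45 and 0.75. Libraries of the same experiment batch correlated between 0.11 and 0.75.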

Other observations

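In other marker lists, 4 of 7 inhibitory neuron markers were called lower from 6 h to 5 d in untreated cultures and none higher (median log2 fold change -0.79), 2 of 7 microglial markers were called higher, 2 of 7 oligodendrocyte lineage markers were called lower, and of 7 endothelial and mural markers 2 were called higher and 1 lower. Among all genes 19.1% were called higher and 14.3% lower in this comparison, and these lists were not tested as sets.

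These data measure RNA of whole cultures, not protein, vesicle number or release. Changes with time cannot be told apart from the experiment batch. With 4 libraries a group, intervals for Syt2, Sv2b, Sv2c, Syn3, Stx1a, Unc13c, Pclo, Bsn, Slc17a6 and Slc17a7 reached past 0.5 on the log2 scale in some comparisons between exposures.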
